A study of Mus musculus with 6 samples.

Results

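The PGC1 coactivators and the transcription and mitochondrial factors that work with them were examined in gastrocnemius, the large mixed-fiber calf muscle, of *HrasG12V* mice. The 10 genes were taken by symbol from the 23997 genes of the RNAseq tables: *Ppargc1a*, *Ppargc1b*, *Esrra*, *Esrrb*, *Esrrg*, *Nrf1*, *Tfam*, *Gabpb1*, *Sirt1* and *Sirt3*. They were chosen with their values in this same comparison known, so their levels and differences are given as a description, with no test. All 10 were found and had a mean of at least 0.5 FPKM, the limit for a gene to be compared. FPKM is the fragment count scaled by transcript length and by the library's mapped fragments, which puts different genes on a shared scale. In mouse 2276 a trend with transcript length and GC content remained after this scaling, as set out further on. Levels of different genes in that library, and their ratios, are therefore less comparable.

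Muscle from 3 *HrasG12V* mice (2276, 2278 and 2279) was compared with muscle from 3 WT littermates (2277, 2280 and 2281), with 1 library per mouse at 21 days of age and no treatment. The *HrasG12V* mice were Caggs-Cre+ and HrasG12V/+, a model of Costello syndrome in which 1 copy of *Hras* gives the mutant protein from its own promoter. The WT mice were Caggs-Cre- and carried the same floxed allele without recombination, which the labels give as Hras+/+. The Caggs promoter that drives Cre is active in most tissues, so the switch was not restricted to muscle. Sex, litter and batch of the mice are not in the labels, and p-values over these mice measure only the spread between them. A whole muscle holds many cell types, and fewer cells of a type cannot be told apart from less RNA per cell.

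PGC1α and PGC1β, the products of *Ppargc1a* and *Ppargc1b*, do not bind DNA themselves. They are recruited by transcription factors such as the estrogen-related receptors (*Esrra*, *Esrrb*, *Esrrg*), NRF1 and the GABP complex, whose β1 subunit is the product of *Gabpb1*, and they raise transcription of nuclear genes for mitochondrial proteins. One of these proteins is TFAM, which enters mitochondria to package and transcribe mitochondrial DNA. SIRT1 is a nuclear NAD-dependent deacetylase that acts on PGC1α, and SIRT3 is its relative inside mitochondria. In skeletal muscle the pathway is known for its response to endurance exercise and for the oxidative capacity of fibers.

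Upstream sequence is shown for *Ppargc1a*, *Esrra*, *Tfam* and *Sirt3*, which were all below every WT mouse in mice 2278 and 2279. *Ppargc1b* was too, and its window is not shown here. Each run holds the 250 bases before an annotated RefSeq start (build GRCm38.p6), 5′ to 3′ on the strand of the gene. The windows are chr5:51567726-51567975 for *Ppargc1a*, chr19:6921809-6922058 for *Esrra*, chr10:71238045-71238294 for *Tfam* and chr7:140882310-140882559 for *Sirt3*, all on the minus strand. Capitals mark matches, on either strand, to 5 motifs: TNAAGGTCA (an ERR response element), GCGCANGC (an NRF1 site), CCGGAAG (an ETS site that GABP can bind), TGACGTCA (a full cAMP response element) and TGACG (the short form of that element, which the full form contains).
Ppargc1a: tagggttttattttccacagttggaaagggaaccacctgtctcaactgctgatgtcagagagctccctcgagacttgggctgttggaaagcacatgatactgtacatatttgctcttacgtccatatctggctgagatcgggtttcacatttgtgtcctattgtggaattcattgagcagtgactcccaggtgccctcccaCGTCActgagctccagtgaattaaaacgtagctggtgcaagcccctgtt
Esrra: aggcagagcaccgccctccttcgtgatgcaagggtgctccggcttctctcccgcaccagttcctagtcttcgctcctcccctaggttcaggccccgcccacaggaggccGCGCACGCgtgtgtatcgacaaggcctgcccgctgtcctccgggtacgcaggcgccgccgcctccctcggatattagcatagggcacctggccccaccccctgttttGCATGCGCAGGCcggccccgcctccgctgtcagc
Tfam: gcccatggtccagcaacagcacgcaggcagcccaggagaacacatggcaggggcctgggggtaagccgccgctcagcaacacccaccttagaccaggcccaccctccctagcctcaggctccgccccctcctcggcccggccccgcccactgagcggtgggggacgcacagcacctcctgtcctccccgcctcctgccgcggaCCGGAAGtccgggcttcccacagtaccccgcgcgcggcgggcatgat
Sirt3: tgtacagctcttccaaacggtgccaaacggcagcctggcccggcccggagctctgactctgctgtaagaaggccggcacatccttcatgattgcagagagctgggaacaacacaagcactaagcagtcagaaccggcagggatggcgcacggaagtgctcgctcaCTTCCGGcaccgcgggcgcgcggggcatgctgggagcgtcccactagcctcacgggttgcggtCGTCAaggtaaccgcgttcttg

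The *Ppargc1a* run held 1 short cAMP element, whose first base lay 49 bases upstream of the start, and a GC content of 48.0%. The *Esrra* run had 3 NRF1 matches, at 141, 34 and 30 bases upstream, of which the last 2 overlap, and a GC content of 68.4%. The *Tfam* run held 1 ETS match 47 bases upstream. The *Sirt3* run held 1 ETS match 85 bases upstream and 1 short cAMP element 22 bases upstream; another annotated *Sirt3* start had no match. Among 32851 RefSeq promoter windows of this length, the NRF1 letters occurred in 8.3%, the ETS letters in 6.91%, the short cAMP element in 17.8%, the full cAMP element in 1.55% and the ERR element in 1.14%. Windows were read for 9 of the 10 genes, all but *Ppargc1b*, and the ERR letters and the full cAMP element occurred in those of 0 of the 9. Of the other members, *Gabpb1* had an NRF1 match 215 bases upstream of 1 annotated start and a short cAMP element 78 bases upstream of another. *Sirt1* had a short cAMP element at 39 bases, and *Esrrb* had short cAMP elements at 158 and 117 bases. These matches describe letters in the windows and do not show binding.

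*Ppargc1a* was lower in every *HrasG12V* mouse than in any WT mouse, and *Tfam* was too, by a margin that nearly closed. Both statements are about FPKM as given, with the length and GC trend of mouse 2276 still in them. *Ppargc1b* was lower on average, with overlapping groups. *Esrra* and *Sirt3* split the *HrasG12V* mice: both genes were well below WT in mice 2278 and 2279 and above WT in mouse 2276. *Nrf1* and *Gabpb1* stayed near their WT levels. *Esrrb* and *Esrrg* varied as much among WT mice as between genotypes.

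Groups did not overlap, with *HrasG12V* lower, for 2 of the 10 genes, against 10.4% of the 13359 genes compared. They did not overlap with *HrasG12V* higher for 0 of the 10, against 8.11% of all genes. Mice 2278 and 2279 were both below all WT mice for 5 of the 10 (*Ppargc1a*, *Ppargc1b*, *Esrra*, *Tfam* and *Sirt3*), against 28.3% of all genes. The median log2 fold change over the 10 genes was -0.37, beside -0.03 over all genes compared, and without mouse 2276 it was -0.61, beside -0.07. Because the genes were chosen on this comparison, nothing further is read from these counts.

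*Ppargc1a*, the coactivator best known for its induction by exercise, lies at chr5:51454250-51567726 on the minus strand (GRCm38). It measured 9.187, 8.959 and 10.08 FPKM in WT mice 2277, 2280 and 2281. It measured 5.479, 5.215 and 6.054 FPKM in *HrasG12V* mice 2276, 2278 and 2279. The groups were well apart, and the 3 *HrasG12V* values lay close together. The means were 9.41 ± 0.593 and 5.58 ± 0.429 FPKM (SD, n = 3 each), a ratio of 0.593. The log2 fold change was -0.74 ± 0.14 (SE) over all 6 mice, -0.73 ± 0.12 without mouse 2276, and between -0.80 and -0.69 when any 1 mouse was left out. *Ppargc1a* has a long transcript of low GC content (6464 bases and 41.7%), and genes of that kind were generally low in mouse 2276, as set out further on. On the log2 scale, *Ppargc1a* in mouse 2276 was at -0.77 relative to the WT mean. The group of longest genes had a median of -0.52 there, and the group of lowest GC content -0.40. With each library's trend over length and GC content removed, the log2 fold change of *Ppargc1a* was -0.48. Whether mouse 2276 then stays below every WT mouse, and close to mice 2278 and 2279, was not tested.

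*Ppargc1b*, the related coactivator, measured 7.018, 5.666 and 6.677 FPKM in WT and 5.828, 4.230 and 2.941 FPKM in *HrasG12V* mice, in the same order of mice. Mouse 2276 lay inside the WT range and the other *HrasG12V* mice below it. The means were 6.45 ± 0.703 and 4.33 ± 1.45 FPKM (SD, n = 3), and the log2 fold change was -0.61 ± 0.26 (SE), -0.85 ± 0.19 without mouse 2276 and -0.37 without mouse 2279. *Ppargc1b* stood at 0.632 to 0.764 of the *Ppargc1a* level in WT mice, and at 1.06, 0.811 and 0.486 of it in mice 2276, 2278 and 2279. Its transcript is shorter and richer in GC (3656 bases, 57.8%) than that of *Ppargc1a*. How far the trend of mouse 2276 enters this ratio was not tested.

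**Figure D1:**
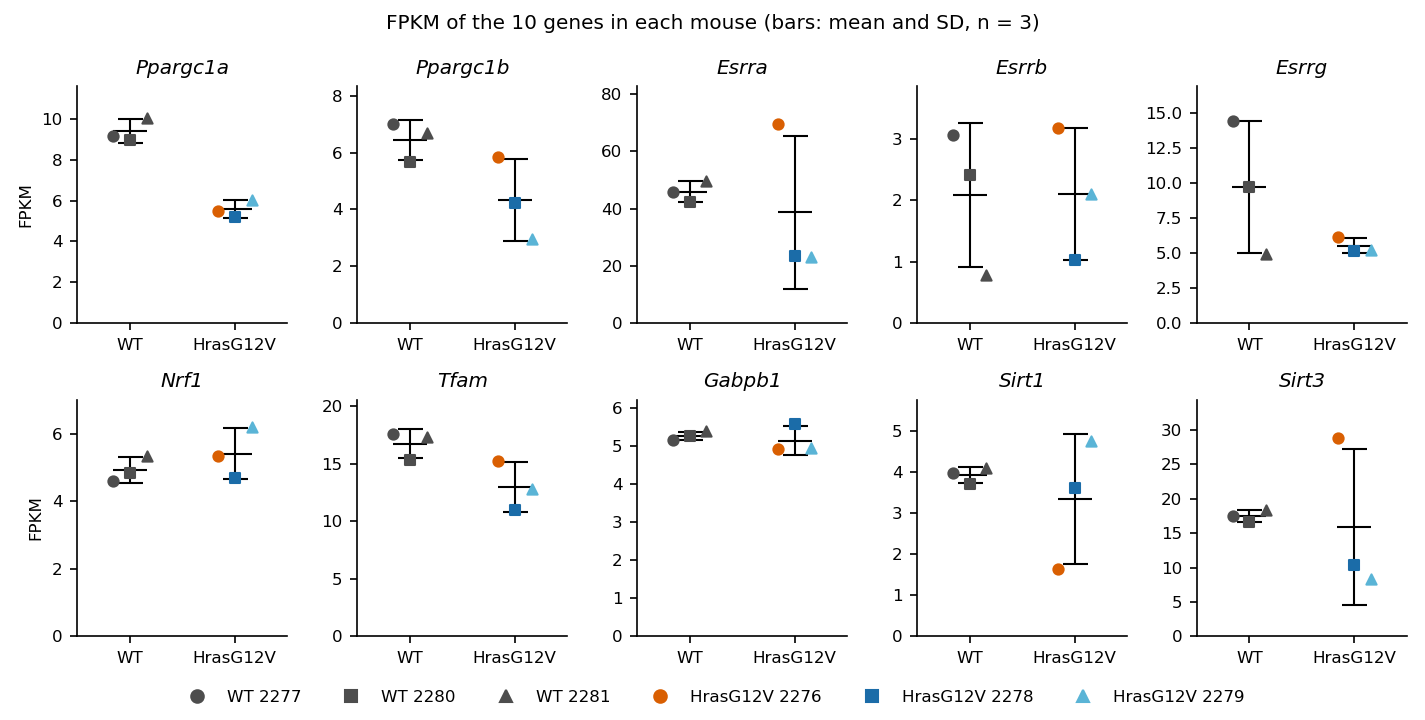
Level of each of the 10 genes in FPKM (vertical axis, starting at 0) for WT and *HrasG12V* mice. Each point is 1 mouse, and the horizontal line and bars are the mean and SD of 3 mice. *Ppargc1a* separates the genotypes, whereas for *Esrra* and *Sirt3* mouse 2276 lies above WT and mice 2278 and 2279 lie below it.

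*Esrra* (chr19:6910977-6921813, minus strand) encodes ERRα, the receptor that partners PGC1α at many mitochondrial genes, and it had the highest level of the 10 genes. It measured 45.91, 42.42 and 49.52 FPKM in WT mice and 69.60, 23.40 and 22.96 FPKM in mice 2276, 2278 and 2279. Mouse 2276 was the highest of all 6 mice, and mice 2278 and 2279 were the lowest. The *HrasG12V* mean of 38.6 FPKM therefore had an SD of 26.8, against 46.0 ± 3.55 FPKM in WT. The log2 fold change was -0.45 ± 0.44 (SE) over all mice and -0.98 ± 0.10 without mouse 2276, and it was -0.18 without mouse 2279. *Esrra* overlaps *Trmt112* on the opposite strand. The library kit kept strand, but whether strand was used in counting is not given in the sources used here, so reads of this pair may be shared.

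*Esrrg*, the ERR form linked to oxidative fibers, measured 14.42, 9.732 and 4.947 FPKM in WT mice and 6.153, 5.161 and 5.239 FPKM in *HrasG12V* mice. The *HrasG12V* values were close together, whereas the WT values spanned the whole range, with WT mouse 2281 the lowest of all 6. Its log2 fold change was -0.68 ± 0.37 (SE); it was -0.33 without WT mouse 2277, -1.09 without WT mouse 2281 and -0.45 with the length and GC trend removed (5373 bases, 42.5% GC). *Esrrb*, the least abundant member, measured 3.072, 2.414 and 0.7821 FPKM in WT mice and 3.186, 1.030 and 2.100 FPKM in *HrasG12V* mice. These ranges covered each other, and the log2 fold change was 0.07 ± 0.59 (SE), or between -0.49 and 0.49 when any 1 mouse was left out.

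WT mouse 2281 also had the lowest levels of slow and oxidative fiber genes. *Myh7*, the slow myosin heavy chain, chosen after its values were seen, measured 96.53, 95.18 and 0.4428 FPKM in WT mice and 196.7, 99.62 and 245.1 FPKM in *HrasG12V* mice. Over 12 such genes mouse 2281 had a median of -2.36 relative to the WT mean on the log2 scale, against 1.25 and 1.22 in the other WT mice. The *HrasG12V* mice 2276, 2278 and 2279 gave 2.59, 1.24 and 2.08. *Esrrb* and *Esrrg* were both lowest, among WT mice, in the mouse with the lowest slow fiber genes. The part of fiber content in the levels of these receptors was not tested.

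*Nrf1* (nuclear respiratory factor 1, chr6:30047988-30153458, plus strand) measured 4.599, 4.847 and 5.342 FPKM in WT mice and 5.354, 4.687 and 6.214 FPKM in *HrasG12V* mice. The groups overlapped, and the log2 fold change was 0.13 ± 0.16 (SE), with 0.08 without WT mouse 2277, 0.23 without mouse 2278 and 0.03 without mouse 2279. *Gabpb1* (chr2:126627442-126676337, minus strand) measured 5.169, 5.267 and 5.394 FPKM in WT mice and 4.918, 5.585 and 4.952 FPKM in *HrasG12V* mice. It had the smallest spread of the 10 genes, and its log2 fold change was -0.04 ± 0.13 (SE). *Gabpa*, which encodes the DNA-binding partner of the *Gabpb1* product and was chosen after its values were seen, measured 12.05, 12.34 and 12.09 FPKM in WT mice and 6.596, 10.40 and 10.99 FPKM in *HrasG12V* mice. Its groups did not overlap, and its log2 fold change of -0.41 ± 0.22 (SE) did not pass an unadjusted p limit of 0.05 and had an adjusted p of 0.576 in limma. Without mouse 2276 it was -0.18 ± 0.09.

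*Tfam* (chr10:71225464-71238280, minus strand) measured 17.60, 15.32 and 17.31 FPKM in WT mice and 15.27, 10.95 and 12.77 FPKM in *HrasG12V* mice. Mouse 2276 was just below the lowest WT mouse, and mice 2278 and 2279 were further down. The means were 16.8 ± 1.24 and 13.0 ± 2.17 FPKM (SD, n = 3). The log2 fold change was -0.37 ± 0.18 (SE), -0.50 ± 0.12 without mouse 2276, and -0.23 with the length and GC trend removed. Per mouse, *Tfam* stood at 3.83, 3.16 and 3.24 times *Nrf1* in WT and at 2.85, 2.34 and 2.05 times *Nrf1* in *HrasG12V* mice.

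*Sirt3* (chr7:140863666-140882309, minus strand) followed *Esrra* across the mice. It measured 17.50, 16.65 and 18.42 FPKM in WT mice and 28.84, 10.36 and 8.352 FPKM in mice 2276, 2278 and 2279, so that the *HrasG12V* mice lay on both sides of WT. Its log2 fold change was -0.36 ± 0.45 (SE) over all mice, -0.90 ± 0.13 without mouse 2276 and -0.02 without mouse 2279. The ratio of *Sirt3* to *Esrra* varied little, from 0.372 to 0.392 in WT mice and from 0.364 to 0.443 in *HrasG12V* mice. *Sirt3* overlaps *Ric8a* and *Psmd13* on the opposite strand, so its reads carry the same uncertainty as those of *Esrra*.

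*Sirt1* (chr10:63319005-63381704, minus strand) went the opposite way in mouse 2276. It measured 3.967, 3.696 and 4.081 FPKM in WT mice and 1.637, 3.609 and 4.750 FPKM in mice 2276, 2278 and 2279. Mouse 2276 alone was far below WT, and the log2 fold change was -0.35 ± 0.37 (SE), 0.08 ± 0.15 without that mouse and -0.66 without mouse 2279. The *Sirt3* to *Sirt1* ratio was 4.41 to 4.51 in WT mice, 17.6 in mouse 2276, and 2.87 and 1.76 in mice 2278 and 2279. *Sirt3* has a shorter transcript of higher GC content (1606 bases, 53.8%) than *Sirt1* (4430 bases, 44.0%). The part of the length and GC trend of mouse 2276 in its ratio was not tested.

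**Figure D2:**
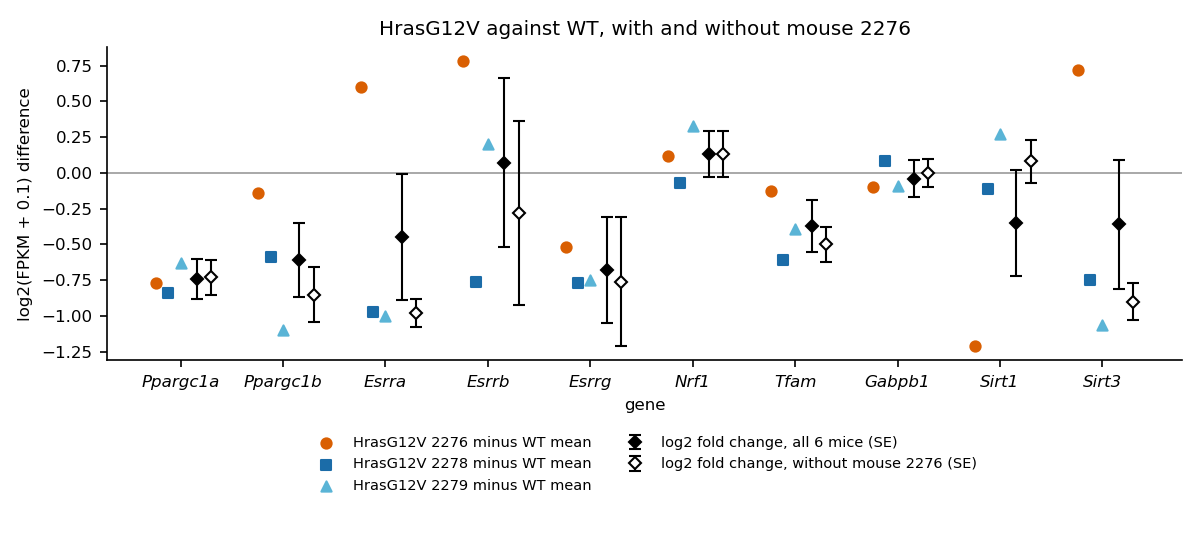
Difference of each *HrasG12V* mouse from the WT mean on the log2(FPKM + 0.1) scale (vertical axis) for each gene, with the log2 fold change and its SE over all 6 mice (filled diamonds) and without mouse 2276 (open diamonds). The *Ppargc1a* estimate is the same within its error with and without mouse 2276, at -0.74 and -0.73, whereas those of *Esrra* and *Sirt3* move to -0.98 and -0.90.

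Mouse 2276 stood apart from the other *HrasG12V* libraries over the whole table, in a way that followed transcript length and base composition. When genes were placed in 5 equal groups by transcript length, its median log2 difference from the WT mean went from 0.68 in the shortest group to -0.52 in the longest. By GC content it went from -0.40 in the group of lowest GC content to 0.36 in the highest. The same medians for mice 2278 and 2279 stayed between -0.14 and 0.01. *Sirt3*, with 1606 bases, and *Esrra*, with 2242 bases and 61.8% GC, fall among the shorter or GC-rich genes, and *Sirt1*, with 4430 bases and 44.0% GC, among the longer and GC-poor ones. With the trend removed, the log2 fold changes were -0.56 for *Esrra*, -0.48 for *Sirt3* and -0.18 for *Sirt1*. *Ppargc1a* in mice 2278 and 2279 was 0.84 and 0.63 log2 units below the WT mean. In these libraries the medians ran from 0.01 to -0.14 with GC content (mouse 2278) and from -0.13 to 0.01 with length (mouse 2279). With the trend removed from every library, the log2 fold change of *Ppargc1a* went from -0.74 to -0.48. The part of the trend in the *Ppargc1a* difference was not tested beyond this.

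**Figure D3:**
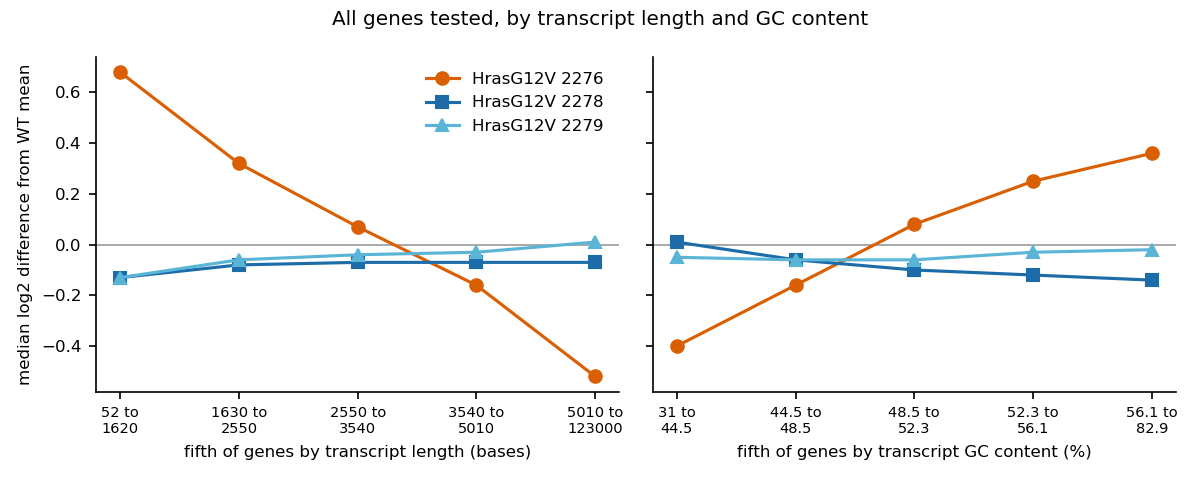
Median log2 difference from the WT mean (vertical axis) for each *HrasG12V* mouse, over all compared genes with a known transcript, in 5 equal groups by transcript length (left, bases) and by GC content (right, percent). Mouse 2276 falls from 0.68 to -0.52 with length and climbs from -0.40 to 0.36 with GC content, while mice 2278 and 2279 stay between -0.14 and 0.01.

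*Hras* itself measured 36.79, 35.99 and 51.83 FPKM in WT and 58.76, 28.94 and 16 FPKM in *HrasG12V* mice, with overlapping groups. Its level does not check the genotype, since the point mutation is not read by a gene-level FPKM. Skeletal muscle markers were abundant, with summed levels of 27000 to 39700 FPKM in WT and 23900 to 51600 FPKM in *HrasG12V* mice. Of the 10, 2 (*Ttn* and *Neb*) were lower in all *HrasG12V* mice and 0 were higher. However, 3 of the 10 (*Acta1*, *Myh4* and *Atp2a1*) are listed at 0 in every library and another 3 in some. *Ckm* was above 0 only in mouse 2278, *Tnnt3* was 0 only in mouse 2276, and *Myh1* was 0 in WT mice 2277 and 2280. The sums thus hold different genes in different mice and do not compare the genotypes. An exact 0 in such tables can be a failed estimate, so these zeros are not read as absence. None of the pathway genes compared was listed at 0 in a library.

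Lymphocyte markers moved with mice 2278 and 2279. Their summed level over 8 genes was 92.1 and 85.1 FPKM there, 2.2 FPKM in mouse 2276 and 1.2 to 1.63 FPKM in WT mice, and 4 of the 8 were higher in all *HrasG12V* mice. White adipocyte markers (8 genes) ranged from 142 to 189 FPKM in WT and from 135 to 231 FPKM in *HrasG12V* mice, most of it *Plin4* in WT, which was lower in all *HrasG12V* mice. Without *Plin4* the sums were 21.1 to 56.5 FPKM in WT mice and 58.6, 171 and 104 FPKM in mice 2276, 2278 and 2279. Of the 8, 5 (*Adipoq*, *Cidec*, *Plin1*, *Adig* and *Retn*) were above all WT mice in both mice 2278 and 2279, among them *Adipoq* at 36.9 and 28.7 FPKM there against 2.88 to 13.7 FPKM in WT and 8.4 FPKM in mouse 2276. Erythroid markers (7 genes) ranged from 657 to 764 and from 602 to 1970 FPKM. Cardiac markers (6 genes) were 3.82 to 11.9 FPKM in WT and 13.4 to 26.6 FPKM in *HrasG12V* mice, mostly *Myh6* except in WT mouse 2281, where *Myh6* was 0.794 FPKM and *Tnnt2* 2.06 FPKM. Brown adipocyte markers (6 genes) summed to 698 to 869 FPKM in WT and to 348 to 1780 FPKM in *HrasG12V* mice, nearly all of it *Cox7a1*, a respiratory chain subunit that muscle also makes. *Ucp1*, which defines brown fat, was at most 1.94 FPKM in WT and was 5.6, 35.8 and 5.92 FPKM in mice 2276, 2278 and 2279. The part of these cell types in the levels of the 10 genes was not tested.

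The rest of the pathway was described through 8 gene lists, tested gene by gene in limma over all 13359 genes. Over all mice, 4.99% of these genes passed an unadjusted p limit of 0.05 with *HrasG12V* lower and 5.18% with *HrasG12V* higher. Only 0.0599% (8 genes) passed after Benjamini-Hochberg adjustment, none of them in a list. Without mouse 2276 the shares were 17.4% lower, 12.4% higher and 9.66% adjusted. Mouse 2276 was above all WT mice for 43.1% of genes.

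Among 52 partners and upstream regulators of PGC1, 4 were lower and 1 was higher at the unadjusted limit, with a median log2 fold change of -0.19. *Prkab2*, the β2 subunit of the energy sensor AMPK, averaged 90.8 ± 18.7 FPKM in WT and 57.2 ± 6.63 FPKM in *HrasG12V* mice (SD, n = 3), a log2 fold change of -0.65 ± 0.23 (SE). *Ppp3r1*, the regulatory subunit of calcineurin, averaged 98.1 ± 3.58 and 70.8 ± 6.12 FPKM (-0.47 ± 0.18). *Thrb*, a thyroid hormone receptor, averaged 4.34 ± 0.429 and 3.04 ± 0.501 FPKM (-0.51 ± 0.17). The other lower gene, outside the rule and chosen after its values were seen, was *Crtc1*, a coactivator of CREB, at -0.36 ± 0.13. The higher gene was *Myc*, a growth-related transcription factor, which averaged 2.94 ± 0.394 and 4.70 ± 1.23 FPKM (0.64 ± 0.23). For all 5 the values of the genotypes did not overlap, and their adjusted p-values in limma were between 0.454 and 0.481.

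*Perm1*, a muscle regulator induced by PGC1α and ERRs, and *Ppara*, a lipid-sensing receptor that PGC1α coactivates, were chosen after their values were seen. *Perm1* measured 112.2, 91.19 and 85.02 FPKM in WT mice and 99.96, 42.39 and 39.97 FPKM in mice 2276, 2278 and 2279. It had the pattern of *Esrra* in mice 2278 and 2279 and lay within the WT range in mouse 2276. *Ppara* measured 10.88, 7.910 and 5.973 FPKM in WT mice and 7.221, 3.355 and 3.638 FPKM in *HrasG12V* mice. Neither passed the unadjusted limit over all mice.

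Among 28 genes of mitochondrial DNA maintenance and transcription, 2 were lower and 1 was higher, with a median of -0.06, or -0.36 without mouse 2276. *Tfb2m*, which opens mitochondrial promoters together with TFAM and the mitochondrial polymerase, averaged 30.6 ± 1.32 FPKM in WT and 22.6 ± 2.61 FPKM in *HrasG12V* mice (SD, n = 3), a log2 fold change of -0.44 ± 0.17 (SE). *Rrm2b*, a ribonucleotide reductase subunit that supplies nucleotides for mitochondrial DNA, averaged 8.30 ± 0.880 and 5.23 ± 1.67 FPKM (-0.70 ± 0.26, or -0.43 without mouse 2276). *Tk2*, the mitochondrial thymidine kinase, was higher, at 2.78 ± 0.239 and 3.92 ± 0.483 FPKM (0.48 ± 0.16). *Polrmt*, the mitochondrial RNA polymerase, also chosen after its values were seen, showed little difference (0.02 ± 0.23, or -0.12 ± 0.22 without mouse 2276).

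Among 20 sirtuin relatives and genes of NAD metabolism, 1 was lower and 1 was higher, with a median of -0.03, or -0.24 without mouse 2276. *Nampt*, the rate-limiting enzyme of NAD salvage, measured 40.35, 38.77 and 43.35 FPKM in WT mice and 26.68, 26.76 and 30.83 FPKM in *HrasG12V* mice. All *HrasG12V* values were below all WT values, including that of mouse 2276, with a log2 fold change of -0.54 ± 0.16 (SE). *Sirt7*, a nuclear and nucleolar sirtuin, measured 4.426, 4.147 and 4.002 FPKM in WT mice and 5.791, 6.919 and 6.771 FPKM in *HrasG12V* mice. It was the higher gene, at 0.62 ± 0.14 (SE), with an adjusted p of 0.354 in limma against 0.426 for *Nampt*.

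Among 46 target genes of PGC1 and the ERRs in muscle, 3 were lower and 2 were higher, with a median of -0.40, or -0.71 without mouse 2276. *Ucp3*, an uncoupling protein of muscle mitochondria, measured 120.0, 80.62 and 127.9 FPKM in WT mice and 37.10, 13.87 and 28.08 FPKM in *HrasG12V* mice. *Pdk4*, which inhibits pyruvate dehydrogenase and spares glucose, measured 1241, 856.7 and 680.8 FPKM in WT mice and 239.9, 100.9 and 405.1 FPKM in *HrasG12V* mice. Both separated the genotypes in every mouse. The log2 fold changes were -2.14 ± 0.40 for *Ucp3* and -2.07 ± 0.55 for *Pdk4* (SE), with adjusted p-values in limma of 0.288 and 0.382.

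*Cd36*, a fatty acid transporter, was the other lower target, at -0.84 ± 0.33, although mouse 2279 (291.3 FPKM) was above WT mouse 2281 (286.0 FPKM). The higher targets were *Ucp2*, another uncoupling protein, at 12.5 ± 0.873 and 18.4 ± 4.29 FPKM (0.53 ± 0.22), and *Gpx1*, a peroxide-removing enzyme, at 46.8 ± 5.59 and 85.2 ± 29.8 FPKM (0.82 ± 0.28, or 0.54 without mouse 2276). These differences are log2 fold changes with SE, and the adjusted p-values in limma of the 3 genes were between 0.454 and 0.488. *Cs*, citrate synthase, chosen after its values were seen, measured 533.9, 489.6 and 512.0 FPKM in WT mice and 527.9, 299.5 and 338.0 FPKM in mice 2276, 2278 and 2279, with mouse 2276 within WT.

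**Figure D4:**
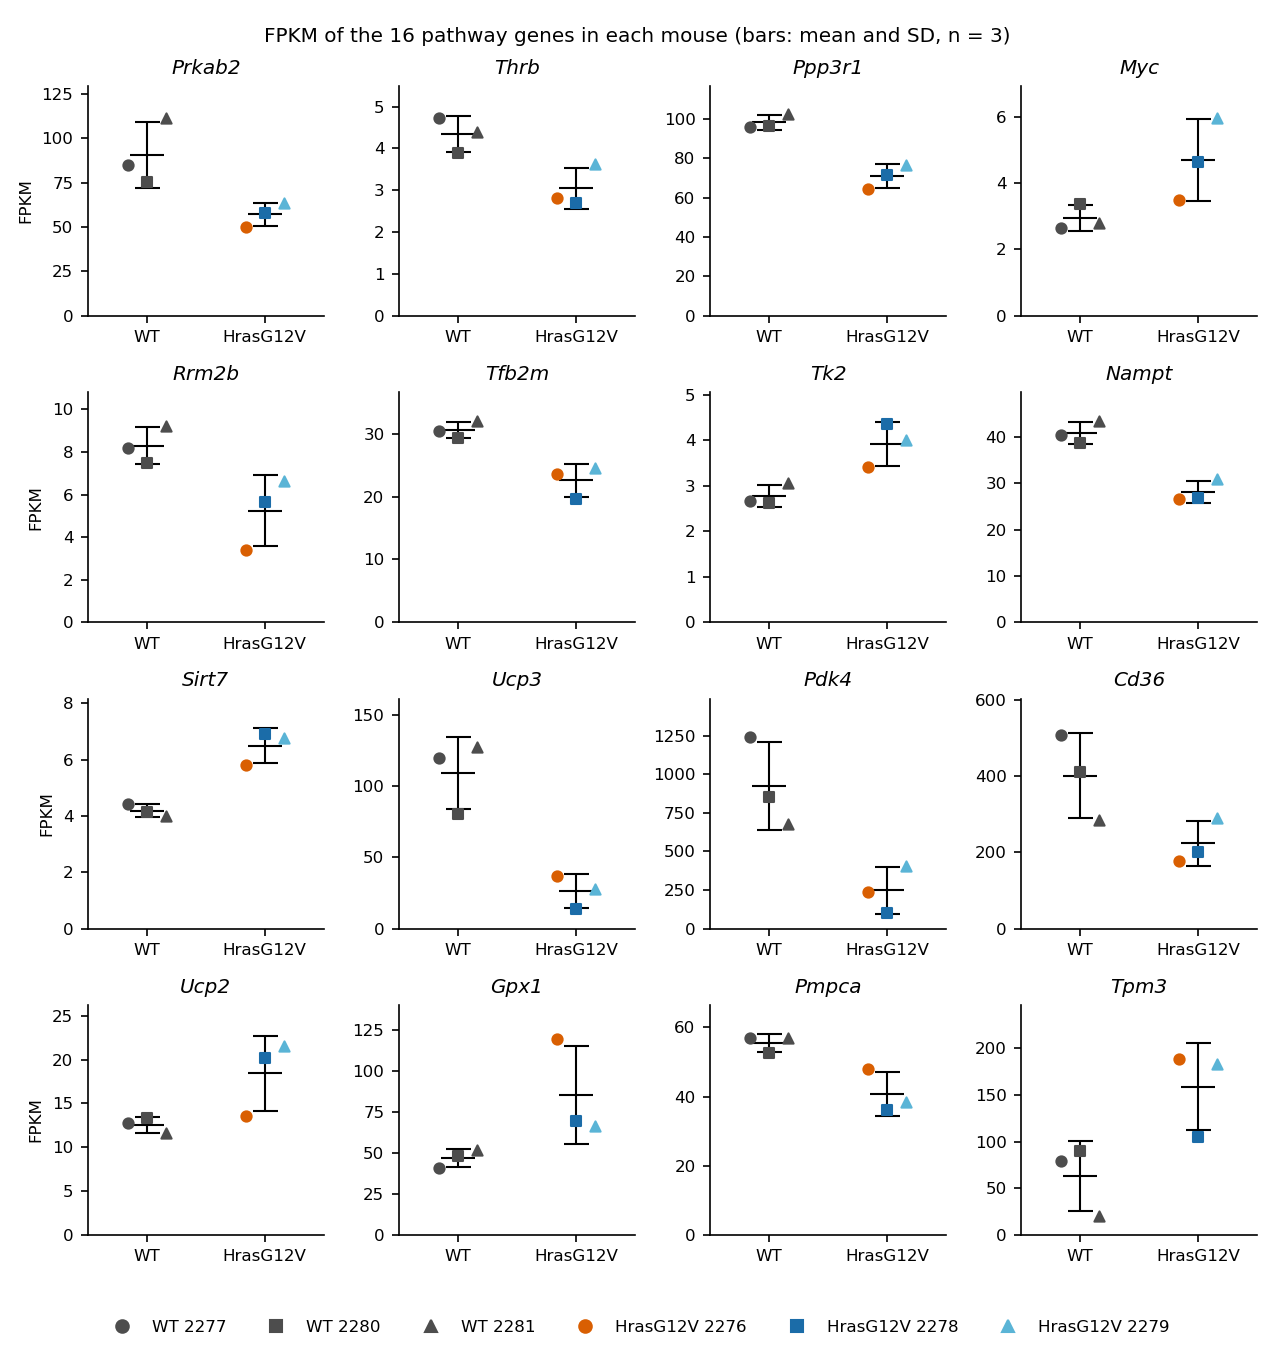
Level in FPKM (vertical axis, starting at 0) of the 16 pathway genes named by the rule, for WT and *HrasG12V* mice. Each point is 1 mouse, with the mean and SD of 3 mice. *Ucp3*, *Pdk4* and *Nampt* are lower and *Sirt7* is higher in all 3 *HrasG12V* mice, while *Cd36* overlaps between the genotypes.

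Of the 16 pathway genes named by the rule, 4 stayed past the unadjusted limit whichever mouse was left out: *Nampt*, *Sirt7*, *Ucp3* and *Pdk4*. Leaving out WT mouse 2277, 2280 or 2281 left 11, 8 and 9 of the 16 no longer significant at an unadjusted p of 0.05 in limma, and leaving out mouse 2276, 2278 or 2279 did so for 2, 9 and 5. The highest p-value so reached was 0.148, for *Cd36* without WT mouse 2277. With the length and GC trend removed, 5 of the 16 were no longer significant at that limit in limma. These were *Nampt* (log2 fold change -0.34, unadjusted p of 0.108), *Sirt7* (0.49, 0.123), *Thrb* (-0.26, 0.246), *Myc* (0.58, 0.101) and *Tk2* (0.44, 0.0771). *Ucp3* (-2.17) and *Pdk4* (-1.96) then had unadjusted p-values in limma of 0.000491 and 0.00995.

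Respiratory chain genes had the split seen for *Esrra* and *Sirt3*. Among 44 genes of complexes II to V and cytochrome c, 0 passed the unadjusted limit over all mice in limma, with a median of -0.24. Mouse 2276 was above all WT mice for 43 of them, and mice 2278 and 2279 were both below all WT mice for 42. Relative to the WT mean, their median on the log2 scale was 0.99 in mouse 2276 and -0.83 in both of the others. Without mouse 2276, 41 of the 44 were lower and 0 higher at the unadjusted limit, 36 of them after adjustment, and the median was -0.86. *Cox5a*, a subunit of complex IV chosen after its values were seen, shows the split: 946.0, 897.0 and 955.4 FPKM in WT mice and 1805, 451.1 and 456.9 FPKM in mice 2276, 2278 and 2279. *Sdha*, the flavoprotein of complex II, was chosen in the same way and measured 456.9, 409.7 and 442.6 FPKM in WT and 412.2, 249.3 and 249.8 FPKM in *HrasG12V* mice, with mouse 2276 inside the WT range.

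The 77 mitochondrial ribosomal protein genes divided the mice in the same way. None passed the unadjusted limit over all mice in limma (0 of 77), mouse 2276 was above all WT mice for 77 of 77, and mice 2278 and 2279 were both below for 72. Without mouse 2276, 67 were lower at the unadjusted limit and 22 after adjustment, and the median was -0.51 in place of -0.02. Among 33 protein import genes, 1 was lower over all mice (*Pmpca*, a subunit of the protease that removes import signals, at -0.45 ± 0.19, SE) and 22 without mouse 2276, with medians of -0.05 and -0.51. The corresponding counts of lower genes without mouse 2276 were 30 of 46 for the PGC1 and ERR targets, 14 of 28 for mitochondrial DNA maintenance, 6 of 20 for sirtuins and NAD metabolism and 8 of 52 for PGC1 partners, against the 17.4% of all genes. Mouse 2276 had short or GC-rich genes high in general, and the part of this trend in its mitochondrial genes was not tested gene by gene. With the trend removed from every library, 2 of the 44 respiratory chain genes, 1 of the 77 ribosomal genes and 9 of the 46 targets passed the unadjusted limit in limma, in either direction, against 11.4% of all genes in that fit.

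**Figure D5:**
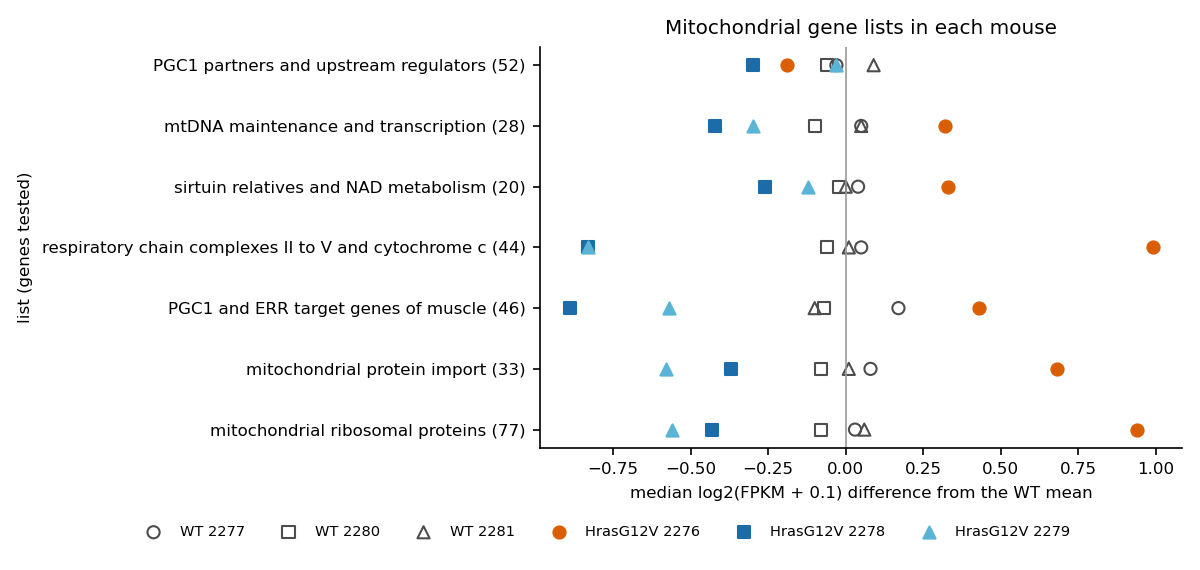
Median log2(FPKM + 0.1) difference from the WT mean (horizontal axis) of each mouse for 7 gene lists (vertical axis, with the number of genes compared). Open symbols are WT mice and filled symbols *HrasG12V* mice. For respiratory chain genes mouse 2276 lies at 0.99 and mice 2278 and 2279 at -0.83, whereas for PGC1 partners all 3 lie between -0.30 and -0.03.

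Slow and oxidative fiber genes were the list with the largest median, 2.03 over 12 genes, which turned on WT mouse 2281. *Tpm3*, a tropomyosin of slow fibers, passed the unadjusted limit (1.55 ± 0.60, SE) with 79.01, 89.79 and 20.26 FPKM in WT mice and 188.2, 105.4 and 183.5 FPKM in *HrasG12V* mice. Without WT mouse 2281 the median was 0.55, 0 of the 12 genes passed the unadjusted limit in limma, and *Tpm3* had a log2 fold change of 0.87. It also missed that limit when any 1 *HrasG12V* mouse was left out, with a highest unadjusted p of 0.117 in limma.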

How the data were processed

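The 6 libraries were mRNA of gastrocnemius, prepared with a stranded kit and sequenced as single-end reads. The authors aligned reads with TopHat and obtained FPKM with Cufflinks and Cuffnorm, and deposited 1 FPKM per gene symbol and library for 23997 symbols. The submitters' processing notes name GRCm38 (mm10) and bcl2fastq, with versions not given in the sources used here. Libraries are scaled to each other by Cuffnorm, so FPKM totals of 413020 to 814013 are not depths. Low values gave no steps of whole reads (the fullest interval of their ratios held 0.863% to 5.01% of genes), so no count model was used, the depth behind single values is unknown, and precision comes only from the spread between mice.

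Genotypes were compared on log2(FPKM + 0.1) with limma 3.58.1 (R 4.3.3, empirical Bayes with a trend, two-sided, no covariate) over 13359 genes with a mean of at least 0.5 FPKM in the 6 libraries, with Benjamini-Hochberg adjustment over all of them. The pseudocount understates differences of low genes. The fit was first tested on simulated data. The members and lists were chosen with earlier results of these data known, so no test was made on the 10 members. Other genes were named by rule: in each list the 3 with the highest and the 3 with the lowest log2 fold change, of those past an unadjusted p of 0.05, and the 5 genes closest to *Ppargc1a* in pattern. Genes outside the rule, and marker genes named singly, were chosen after their values were seen. Transcript lengths and GC content came from a GRCm38 annotation, for 99.3% of the genes compared, and promoter windows from RefSeq (GRCm38.p6). No protein sequences were used here. Each choice was varied in 10 other settings and by leaving out each mouse. The figures were drawn with matplotlib 3.10.9.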

Additional observations from a re-analysis of the deposited data

How the results depend on the processing

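Of the 10 genes, *Ppargc1a*, *Ppargc1b*, *Esrra*, *Esrrg*, *Tfam* and *Sirt3* had negative log2 fold changes and *Nrf1* a positive one under all the settings run, among them each fit that left out a mouse, although that of *Sirt3* came as close to 0 as -0.02. Removing the length and GC trend, a setting chosen after seeing the data, moved *Ppargc1a* to -0.48 and *Gabpb1* to 0.10 by more than the spread between mice, and gave 5 calls for mitochondrial DNA maintenance, 2 for the respiratory chain, 9 for PGC1 and ERR targets and 1 for mitochondrial ribosomal proteins, with 1528 (11.4%) of all genes called. Leaving out 1 mouse gave 606 to 3979 genes past the unadjusted limit, against 1358 with all mice, and 7 to 1291 past the adjusted limit, against 8, with the highest counts without mouse 2276. In the lists the calls then ranged from 0 to 13 for PGC1 partners, 0 to 16 for mitochondrial DNA maintenance, 2 to 8 for sirtuins and NAD metabolism, 0 to 41 for the respiratory chain, 2 to 32 for PGC1 and ERR targets, 0 to 22 for import, 0 to 1 for slow fiber genes and 0 to 67 for mitochondrial ribosomal proteins. Array weights gave 3042 unadjusted and 572 adjusted calls, and in the lists, in that order, 11, 13, 5, 36, 32, 12, 0 and 28. They took the log2 fold change of *Esrra* from -0.45 to -0.88 and that of *Sirt3* from -0.36 to -0.79. *Esrrb* went from 0.07 to -0.50 and *Sirt1* from -0.35 to -0.00, while *Ppargc1a* was at -0.73. Each of these shifts was smaller than the spread between mice. Scaling to the same total FPKM gave 712 unadjusted calls and 3, 1, 1, 5, 14 and 0 for the first 6 lists. Quantile normalization gave 8 calls for the respiratory chain and 14 for PGC1 and ERR targets, with 1693 (12.7%) of all genes called. A pseudocount of 1 gave 5 adjusted calls. Without moderation there was 1 adjusted call, with 3 for PGC1 and ERR targets, 2 for import and 0 for slow fiber genes. A filter of 1 FPKM and median centring each gave 0 for import. The cause was not tested. The WT mice were littermates, but no analysis paired by litter was possible because the labels do not give the litter of each mouse. With 3 mice per genotype and unknown depth, differences smaller than the spread between mice were not detectable.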

Other observations

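The genes whose pattern over the 6 mice was most like that of *Ppargc1a*, by the root mean square difference of centred log2(FPKM + 0.1) values over 12168 genes with a mean of at least 1 FPKM, were 5830417I10Rik (0.0565), *Tmem64* (0.0594), *Gid4* (0.0685), *Mlxip* (0.076) and *Pcnx* (0.0792). *Mlxip*, which encodes the glucose-responsive transcription factor MondoA, measured 46.19, 40.08 and 49.59 FPKM in WT mice 2277, 2280 and 2281. It measured 25.28, 24.25 and 31.43 FPKM in *HrasG12V* mice 2276, 2278 and 2279. *Gid4*, a substrate receptor of a ubiquitin ligase, measured 29.07, 29.79 and 36.90 FPKM in WT and 19.38, 18.34 and 20.19 FPKM in *HrasG12V* mice. *Tmem64*, a membrane protein gene, averaged 72.7 ± 1.48 FPKM in WT and 43.6 ± 4.79 FPKM in *HrasG12V* mice (SD, n = 3). All 5 were lower in every *HrasG12V* mouse than in any WT mouse, which their choice by likeness to *Ppargc1a* fixes.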
